A study of Mus musculus with 12 samples.

Results

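The genes described here encode the enzymes that use glutathione, peroxiredoxins and thioredoxin against peroxides and electrophiles, together with superoxide dismutases, catalase and 2 inducible enzymes of the same defence, Nqo1 and Hmox1. They were chosen by symbol: protein-coding genes named Gsta, Gstm, Gstp, Gstt, Gsto, Gstk, Gstz, Gpx, Prdx, Txn or Sod with a number, plus Txnip, Txnrd1 to Txnrd3, Cat, Gsr, Gss, Gclc, Gclm, Nqo1 and Hmox1, with at least 10 counts in at least 3 of the 12 libraries. Of the 54146 genes in the count files, 53 had such a symbol and 44 of these reached the minimum. They comprised 17 glutathione transferases, 5 glutathione peroxidases, 6 peroxiredoxins, 6 genes of the thioredoxin system, 4 superoxide dismutase and catalase genes, 4 genes of glutathione synthesis and reduction, and Nqo1 and Hmox1. The 9 below the minimum were Gsta1, Gstm3, Gstp2, Gstp3, Gstt4, Gpx2, Gpx5, Gpx6 and Prdx6b. All 44 were tested.

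RNA came from whole mouse retina, 1 eye per mouse and 3 mice per condition, in a study of Otx2, the homeobox factor that photoreceptors express throughout life. The P30 group is labelled control, with no day after induction, and the study's methods make it day 0 of the tamoxifen series; its genotype is not given in the sources used here. All strains were kept on a 129/SV background. The cKO mice carried Crx-CreERT2, which places a tamoxifen-dependent Cre under the Crx promoter of photoreceptors, and Otx2 flox/flox; they received 1 intraperitoneal dose of tamoxifen at P30, in corn oil by the labels and sunflower oil by the study's methods, and were killed 2 d (P32), 4 d (P34) or 8 d (P38) later. Age, tamoxifen and the Otx2 deletion therefore changed together between control and cKO, and their parts cannot be told apart. Mice are numbered 1 to 3 at P30, 4 to 6 at P32, 7 to 9 at P34 and 10 to 12 at P38.

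Superoxide, formed by mitochondria and oxidases, is turned into hydrogen peroxide by superoxide dismutases, and peroxide is then removed by catalase, glutathione peroxidases and peroxiredoxins. Glutathione is built by glutamate-cysteine ligase (Gclc, Gclm) and glutathione synthetase (Gss) and is kept reduced by Gsr, while thioredoxin reductases keep thioredoxin reduced. Many of these genes are known targets of the transcription factor NRF2, which binds antioxidant response elements, and photoreceptors are known for a high exposure to light and oxygen.

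The libraries held between 29701483 and 60145034 reads on genes. Levels are in CPM, reads of a gene per 1000000 reads of its library, scaled by TMM. Before that scaling, 3 counts corresponded to 0.0499 to 0.101 CPM. In every library 8 rod markers summed to between 60128 and 109002 CPM and 8 Müller glia markers to between 4759 and 5505 CPM. Otx2 itself gave 293 to 328 CPM at P30 and 307 to 377 CPM in the cKO groups; the gene count does not show whether the floxed exon is present. Markers of neighbouring eye tissue were uneven. The 12 lens markers summed to 330 to 55626 CPM and the 10 ciliary body and iris markers to 24.7 to 185 CPM. The 6 smooth muscle markers (5 of them tested) summed to 9.33 to 198 CPM. Also uneven were 8 pigment cell markers, at 32 to 844 CPM. The study states that its whole-retina RNA includes that of the retinal pigmented epithelium. It places Tyr, Tyrp1, Slc45a2, Pmel and Mlana of this pigment list there, as OTX2 targets, and reports them lower after the deletion. The 10 markers of the retinal pigmented epithelium (145 to 342 CPM), 6 of endothelium (173 to 305 CPM), 6 of cones (1217 to 1660 CPM), 6 of microglia and macrophages (25.1 to 38.1 CPM), 6 of fibroblasts and sclera (26.5 to 94.9 CPM), 5 of red blood cells (21.6 to 167 CPM) and 5 of corneal and conjunctival epithelium (0.665 to 14.8 CPM, 4 of them tested) completed the check. Xist, which marks female tissue, was high in all 3 P30 mice, in 2 P32 mice, in 1 P34 mouse and in 1 P38 mouse, so sex was not balanced between the conditions. In whole tissue, fewer cells of a type and less RNA per cell cannot be told apart.

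The upstream stretches of Gsta3 and Gpx3 are shown because both genes passed the threshold described further on. Sod3, which also passed it, had no promoter record. Sequences are from RefSeq promoter records on GRCm38.p6, which place 250 bases before each transcription start; 37 of the 44 members had a record. Capitals mark matches to TGACNNNGC, the core of the antioxidant response element, or to TAATCC, the core bound by OTX2 and CRX, searched on both strands. The Gsta3 stretch, chr1:21240335-21240584 on the plus strand, held 1 match of each motif, 121 and 102 bases before the start.
Gsta3: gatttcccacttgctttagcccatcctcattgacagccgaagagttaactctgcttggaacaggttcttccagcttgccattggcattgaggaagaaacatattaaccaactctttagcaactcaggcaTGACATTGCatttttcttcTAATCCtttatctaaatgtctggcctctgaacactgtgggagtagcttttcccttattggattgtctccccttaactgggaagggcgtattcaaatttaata
The Gpx3 stretch, chr11:54902604-54902771 on the plus strand, is shown without the 82 bases that GENCODE also lists as exon, and the whole 250 bases held no match to either motif. It lies inside the GENCODE span of the gene, which begins at 54902453, and so precedes a later start.
Gpx3: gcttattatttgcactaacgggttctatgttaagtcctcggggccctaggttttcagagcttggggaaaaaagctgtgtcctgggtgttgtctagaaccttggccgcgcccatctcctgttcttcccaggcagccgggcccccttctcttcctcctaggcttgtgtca

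The antioxidant response element core was found in 7 of the 37 members (18.9%), against 11.5% of all genes with a record. These were Gclm, Gsta3, Gstm5, Gstm7, Prdx1, Sod1 and Txnrd1, of which Gsta3 alone passed the threshold in any comparison. The OTX2 and CRX core was found in 2 of the 37 (5.41%), Gsta3 and Gstt3, against 7.21% of all genes. Gclm and Txnrd1 are shown for contrast, having been picked after the search, since their levels stayed within a narrow range in the data below. Their windows lie at chr3:122245413-122245441 and chr10:82859104-82859132, both plus strand, with the match on the minus strand and therefore read in reverse complement. The Txnrd1 window lies inside the GENCODE span of its gene, which begins at 82833951, and so precedes a later start.
Gclm: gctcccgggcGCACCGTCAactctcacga
Txnrd1: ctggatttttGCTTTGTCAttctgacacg
A match describes these letters only, and it was not tested whether any factor binds there.

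Compared per length of exon, as CPM per kb averaged over the 12 mice, 2 peroxiredoxins stood highest. Length here is that of all annotated exons of a gene merged, not of a single transcript. The order therefore depends also on how much exon is annotated, and is not a ranking of transcript numbers. Prdx5, a peroxidase of mitochondria and peroxisomes, had 58.5 ± 15.4 CPM per kb (SD, n = 12), and the cytosolic Prdx2 had 56.4 ± 10.5 CPM per kb. They were followed by Gstm5, a mu-class glutathione transferase, at 51.0 ± 12.6 CPM per kb, and by the mitochondrial Prdx3 at 43.9 ± 4.82 CPM per kb. These 4 neighbours in the order differed by less than the spread of Prdx5 among mice. Txn1, the cytosolic thioredoxin, led its system with 35.5 ± 10.4 CPM per kb, and Gpx4, which reduces lipid hydroperoxides in membranes, led the glutathione peroxidases with 34.5 ± 6.13 CPM per kb. Sod1, the cytosolic copper-zinc superoxide dismutase, led its group with 22.0 ± 5.62 CPM per kb, and Gclc, the catalytic subunit of glutamate-cysteine ligase, led glutathione synthesis with 14.1 ± 1.02 CPM per kb. Hmox1, the inducible heme oxygenase, had a mean of 12.3 CPM per kb with an SD of 19.4, larger than the mean itself. The lowest members were Gsta2 (0.276 CPM per kb), Gsto2 (0.528 CPM per kb) and Gstt3 (0.613 CPM per kb).

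**Figure D1:**
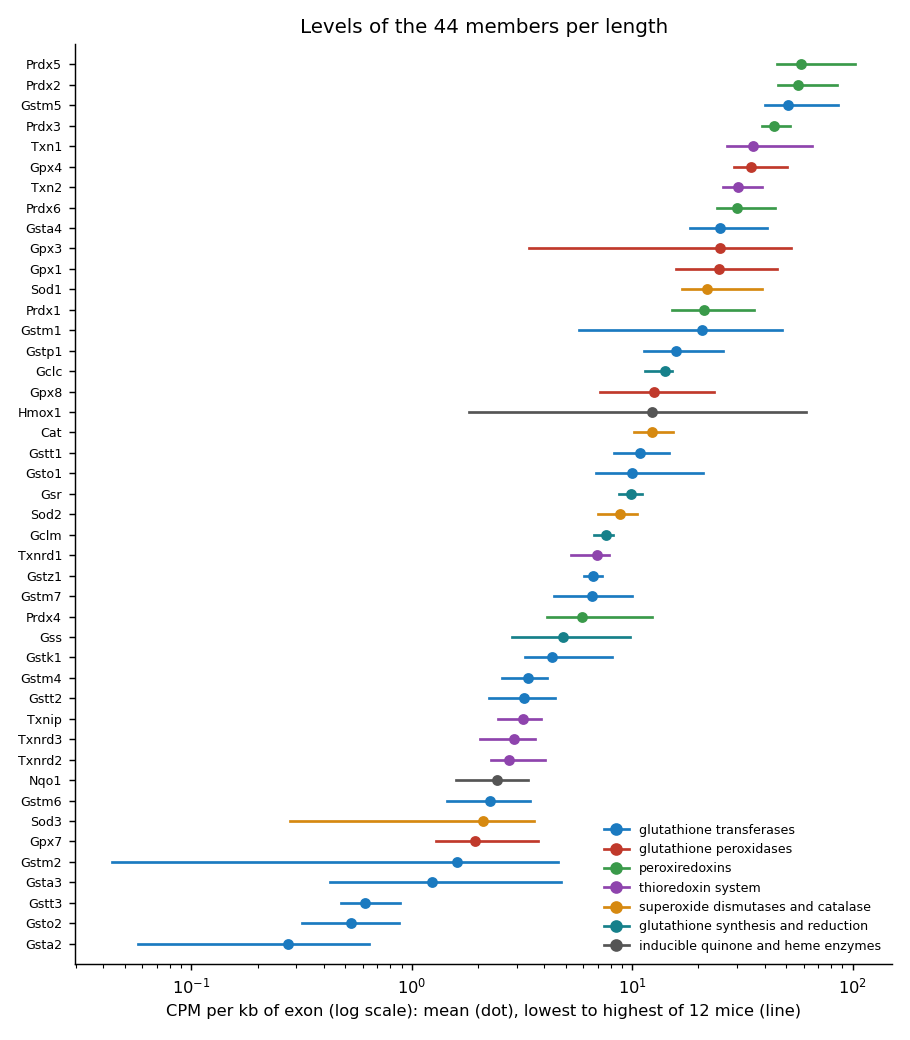
Level of each of the 44 genes in CPM per kb of exon on a log axis; the dot is the mean over 12 mice, the line runs from the lowest to the highest mouse and the colour gives the role. Prdx5 and Prdx2 stand at the top near 58.5 and 56.4, Gsta2 at the bottom, and the long lines belong to Gpx3, Gstm1, Hmox1, Sod3, Gstm2, Gsta3 and Gsta2.

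The members differed widely in how steady they were. In 19 of the 44 the highest mouse had less than 2 times the level of the lowest, in 18 it had between 2 and 5 times, and in 7 it had 5 times or more. Glutamate-cysteine ligase was among the steadiest: its modifier subunit Gclm ranged from 42.1 to 51.6 CPM and its catalytic subunit Gclc from 43.0 to 57.3 CPM. Glutathione reductase, Gsr, ranged from 24.1 to 30.6 CPM, and Gstz1, an enzyme of tyrosine breakdown, spanned 1.20 times from lowest to highest mouse. At the other end the highest mouse exceeded the lowest 105 times for Gstm2, 34 times for Hmox1, 15.4 times for Gpx3, 12.8 times for Sod3, 11.2 times for Gsta3, 11.1 times for Gsta2 and 8.35 times for Gstm1.

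Between P34 and P30 the question was which of these genes differed 4 d after induction, and 3 of 44 passed the threshold, all lower: Sod3, Gpx3 and Gsta3. To pass, a gene needed an adjusted p up to 0.05 (edgeR quasi-likelihood test, Benjamini-Hochberg over 18628 genes) and a log2 fold change of 0.5 or more in either direction. These 3 are 6.82% of the members, against 0.66% of all genes tested that were lower; no gene of either set was called higher. With an unadjusted p up to 0.05, 8 members were lower (18.2%, against 7.06% of all genes) and 0 higher (3.4% of all genes). In 41 of the 44 no comparison passed. The median log2 fold change was -0.17 over the members and -0.00 over all genes tested. Its sign turned with the mean log2 CPM of the ciliary body and iris markers (0.67) or, added after seeing the data, of the lens markers (0.03) as a covariate, and with sex as a covariate it was -0.35.

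Sod3 (ENSMUSG00000072941, chr5:52363791-52371418, plus strand) encodes the secreted superoxide dismutase that binds extracellular matrix. It stood at 13.3, 13.5 and 12.4 CPM in P30 mice, 11.6, 12.4 and 4.51 in P32 mice, 1.44, 1.05 and 1.45 in P34 mice and 7.57, 8.25 and 6.85 in P38 mice. All 3 P34 mice lay below every other mouse, and mouse 6 lay far below the other P32 mice. The log2 fold change was -3.32 ± 0.33 (SE) at P34 against P30 (edgeR, adjusted p = 0.000672). Sod3 was also -2.85 ± 0.32 (log2) at P34 against P32 (edgeR, adjusted p = 0.00326) and 2.53 ± 0.32 higher at P38 than at P34 (edgeR, adjusted p = 0.00725). Its P38 mice still lay below every P30 mouse, but that difference of -0.79 ± 0.29 did not pass (edgeR, adjusted p = 0.847). Sod3 was the sole member with all 3 mice on the same side of all P30 mice at P32, P34 and P38, which 0.601% of all genes tested showed. The other dismutases and catalase differed from it: at P34 against P30, cytosolic Sod1 was -0.01 ± 0.22, mitochondrial Sod2 0.25 ± 0.12 and Cat 0.20 ± 0.11 on the log2 scale, none past the threshold.

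Gpx3 (ENSMUSG00000018339, chr11:54902453-54910377, plus strand) encodes the secreted, plasma-type glutathione peroxidase. Its levels were 61.3, 94.1 and 90.5 CPM in P30 mice, 60.3, 95.0 and 21.6 in P32 mice, 9.69, 6.15 and 7.11 in P34 mice and 36.0, 33.8 and 27.4 in P38 mice. As for Sod3, the P34 mice were the lowest 3 of the 12, and mouse 6 was the lowest at P32. The log2 fold change was -3.42 ± 0.43 at P34 against P30 (edgeR, adjusted p = 0.00294) and -2.95 ± 0.43 at P34 against P32 (edgeR, adjusted p = 0.0115). At P38 the level was 2.08 ± 0.42 above P34 on the log2 scale without passing (edgeR, adjusted p = 0.121). Cytosolic Gpx1 (-0.17 ± 0.31) and Gpx4 (0.06 ± 0.19), the other abundant glutathione peroxidases, did not pass at P34 against P30, and neither did Gpx7 (-0.59 ± 0.28) and Gpx8 (-0.85 ± 0.35), which reside in the endoplasmic reticulum.

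Gsta3 (ENSMUSG00000025934, chr1:21240589-21265661, plus strand) encodes an alpha-class glutathione transferase. It stood at 5.45, 20.8 and 10.5 CPM in P30 mice, 6.39, 4.44 and 2.51 in P32 mice, 2.10, 2.18 and 1.86 in P34 mice and 3.01, 2.91 and 2.24 in P38 mice. The controls varied among themselves by more than the cKO mice did, and the P34 and P38 mice all lay below them. The log2 fold change was -2.57 ± 0.45 at P34 (edgeR, adjusted p = 0.0215), -1.46 ± 0.42 at P32 (edgeR, adjusted p = 0.698) and -2.16 ± 0.44 at P38 (edgeR, adjusted p = 0.506), all against P30. The call at P34 was lost without control mouse 2, where the log2 difference shrank to -1.95 (edgeR, adjusted p = 0.0652). It was also lost, with differences of -2.53 to -2.68, without control mouse 3 (edgeR, adjusted p = 0.0562) or mouse 7 (0.132), 8 (0.13) or 9 (0.146) of P34. A lens marker score as a covariate, added after seeing the data, ended it too (-2.64 ± 0.49; edgeR, adjusted p = 0.0616).

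Ciliary body and iris markers moved with Sod3 and Gpx3. Gsta3 was low with them at P34 but stayed at 2.24 to 3.01 CPM at P38, where these markers were higher again. The 10 ciliary body and iris markers, all tested and none at 0 in all mice, summed to 172, 169 and 185 CPM in P30 mice, 153, 179 and 79 in P32 mice, 31.2, 24.7 and 27.7 in P34 mice and 113, 137 and 74.9 in P38 mice. Like Sod3 and Gpx3, they were low in mouse 6 at P32 and lowest in the P34 mice. At P34 against P30, 8 of the 10 were themselves called lower. All 10 are also in the study's own list of genes lower at P34, drawn from these same mice. Their low level at P34 was therefore known beforehand and is not an independent result. The lowest 3 mice were the P34 mice for 9 of these 10 markers, for 6 of the 44 members and for 1.76% of all genes tested. With the mean log2 CPM of these markers as a covariate no member passed at P34: Sod3 stood at -0.86 ± 0.66, Gpx3 at 0.31 ± 0.71 and Gsta3 at 0.16 ± 1.25. That covariate lay between 0.108 and 0.778 at P34 and between 1.90 and 3.35 in the other mice, so marker level and the P34 group can hardly be told apart. For Gsta3, control mice 2 and 3, its highest, also had the highest sums of the 8 pigment cell markers, none at 0 in all mice (844 and 691 CPM against 32 to 137 CPM in the other 10), and of the smooth muscle markers (181 and 198 CPM against 9.33 to 48.7 CPM). The part of any of these tissues in the results was not tested further.

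**Figure D2:**
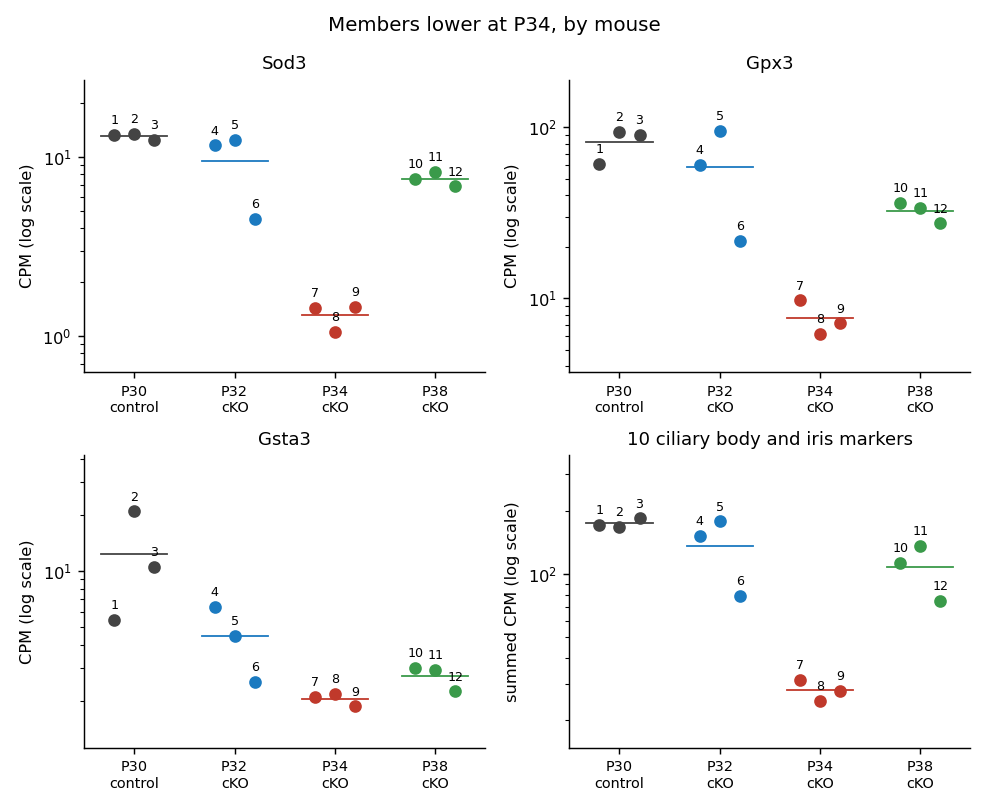
Levels of Sod3, Gpx3 and Gsta3 in CPM and the summed CPM of 10 ciliary body and iris markers in each mouse, on log axes; dots are mice with their numbers and horizontal lines are the means of 3 mice. In each panel the P34 mice are the lowest, Sod3 from 1.05 to 1.45 CPM and the marker sum from 24.7 to 31.2 CPM, and mouse 6 lies below the other P32 mice.

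The values of 11 of the 44 members at P34 lay below all 3 P30 values (25%), where 9.67% of all genes did: Gsta3, Gstk1, Gstm1, Gstm2, Gstt3, Gpx3, Gpx7, Gpx8, Sod3, Gss and Hmox1. No member lay above all P30 values, against 10.4% of all genes. Of these, Gstm2, Gstm1, Gss and Hmox1 are described in turn; Gstm1 and Gss were singled out after their values were seen.

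Gstm2 (ENSMUSG00000040562, chr3:107981702-107986453, minus strand) and its neighbour Gstm1 (ENSMUSG00000058135, chr3:108012255-108017973, minus strand) encode mu-class glutathione transferases and are close in sequence, so reads common to both were not counted. Gstm2 stood at 4.04, 1.05 and 4.96 CPM in P30 mice, 7.74, 4.08 and 0.394 in P32 mice, 0.138, 0.0735 and 0.135 in P34 mice and 5.65, 3.87 and 0.373 in P38 mice. The P34 values rest on 5, 3 and 4 counts. Gstm1 stood at 39.3, 15.0 and 38.3 CPM in P30 mice, 70.3, 46.4 and 9.21 in P32 mice, 9.69, 8.42 and 9.27 in P34 mice and 68.3, 39.5 and 12.9 in P38 mice. Both genes were low in mouse 6, in the P34 mice and in mouse 12, and intermediate in control mouse 2, so that P32 and P38 each held 1 low mouse. The differences at P34 against P30, -4.84 ± 1.25 for Gstm2 (edgeR, adjusted p = 0.162) and -1.76 ± 0.68 for Gstm1 (edgeR, adjusted p = 0.398), did not pass. Under other settings Gstm2 passed with no filter on low counts (edgeR, adjusted p = 0.00732), by DESeq2 (adjusted p = 0.00273), with only the groups compared (edgeR, adjusted p = 0.0154), with sex as a covariate (-6.53; edgeR, adjusted p = 0.0363) and without mouse 6 (edgeR, adjusted p = 0.0457), and Gstm1 passed with only the groups compared (edgeR, adjusted p = 0.0484). With the lens score as a covariate they stood at -2.71 ± 1.02 and -0.35 ± 0.54. Gstm5, the most abundant of the family and at the same locus, ranged from 51.1 to 110 CPM over the 12 mice, with a log2 fold change of -0.00 ± 0.24 at P34 against P30.

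Hmox1 (ENSMUSG00000005413, chr8:75093621-75100589, plus strand) stood at 5.06, 4.72 and 108 CPM in P30 mice, 34, 72.8 and 4.63 in P32 mice, 3.17, 3.31 and 3.32 in P34 mice and 9.12, 4.38 and 6.95 in P38 mice. Mice 3, 4 and 5 were far above the other 9, which held at most 9.12 CPM for Hmox1. Gss, glutathione synthetase (ENSMUSG00000027610, chr2:155563181-155592810, minus strand), had its highest levels in the same mice: 29.2, 19.5 and 43.2 CPM in P30 mice, 58.0, 43.9 and 20.5 in P32 mice, 17.8, 18.2 and 16.8 in P34 mice and 29.8, 21.6 and 24.7 in P38 mice. Both genes varied widely within P30 and P32, and both had their lowest 3 values in the P34 mice. Neither Hmox1 (-3.58 ± 1.20, edgeR, adjusted p = 0.314) nor Gss (-0.80 ± 0.34, edgeR, adjusted p = 0.443) passed at P34 against P30. Hmox1 passed with no filter on low counts (-3.56; edgeR, adjusted p = 0.0492), but without control mouse 3 it stood at -0.59 ± 0.76 (edgeR, adjusted p = 0.815), and Gss then stood at -0.48. The 12 lens markers, all tested and none at 0 in all mice, summed to 13021, 643 and 47946 CPM in P30 mice, 55626, 39399 and 911 in P32 mice, 330, 904 and 696 in P34 mice and 15475, 6091 and 6984 in P38 mice. These mice, taken as the highest 3 of Hmox1 itself, were also the highest 3 for 12 of 12 lens markers and for 2.09% of all genes tested. Among the 44 members they were so for Gss and Gstm4 beside Hmox1. With the mean log2 CPM of the lens markers as a covariate, added after seeing the data, the differences at P34 against P30 were 0.03 ± 0.70 for Hmox1 and 0.05 ± 0.15 for Gss. Gclc and Gclm, which act before Gss in the same synthesis, did not follow it: Gclc was lowest in mouse 4, at 43.0 CPM, and Gclm stood at 51.5, 47.3 and 45.9 CPM in mice 3, 4 and 5.

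**Figure D3:**
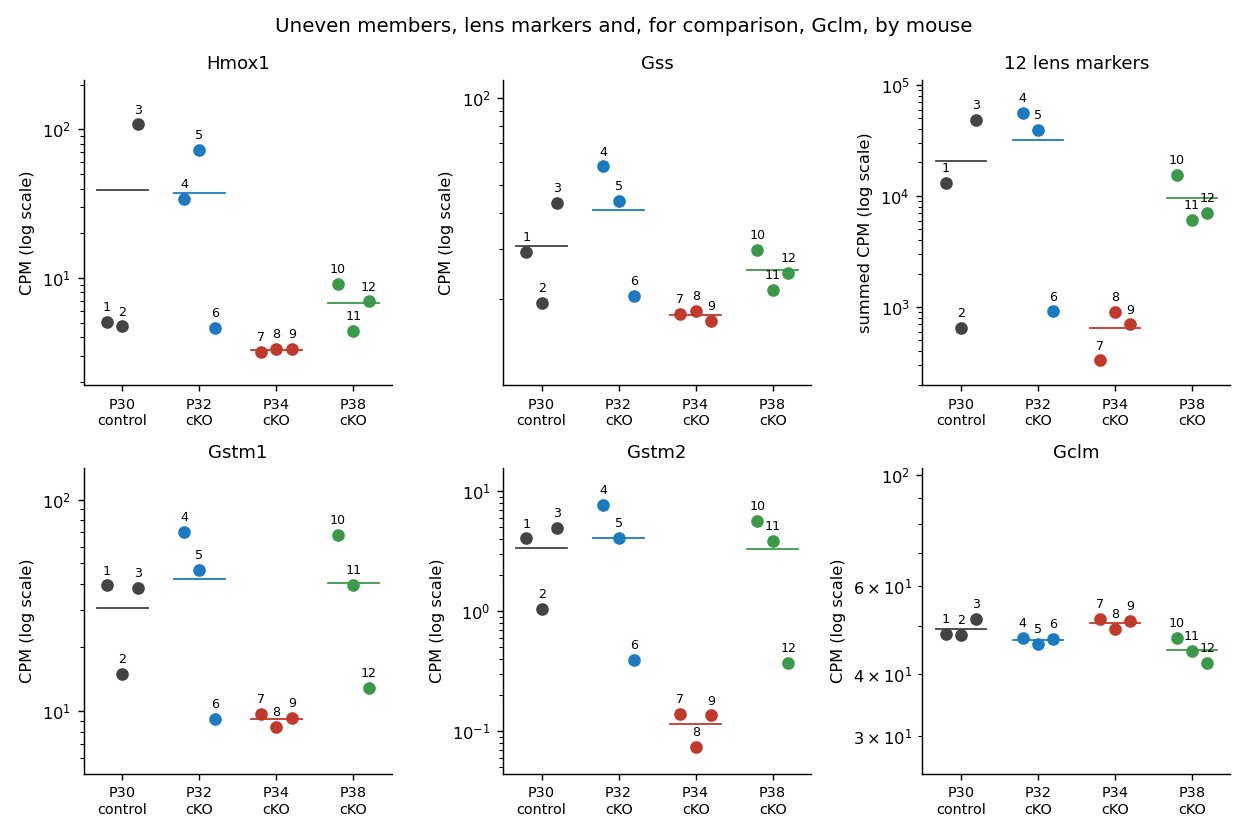
Levels of Hmox1, Gss, Gstm1, Gstm2 and Gclm in CPM and the summed CPM of 12 lens markers in each mouse, on log axes; dots are mice with their numbers and horizontal lines are the means of 3 mice. Hmox1, Gss and the lens markers are highest in mice 3, 4 and 5, Gstm1 and Gstm2 are low in mice 6 and 12 and at P34, and Gclm stays between 42.1 and 51.6 CPM.

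Nqo1, Txnrd1, Gclc and Gclm, often used as readouts of NRF2, passed in no comparison. Nqo1, the inducible quinone reductase, stood at 3.69, 4.54 and 4.90 CPM in P30 mice, 3.45, 3.15 and 2.46 in P32 mice, 5.11, 3.50 and 2.71 in P34 mice and 5.26, 3.26 and 3.32 in P38 mice. Its P32 mice lay below the controls, with a log2 fold change of -0.53 ± 0.27 that did not pass (edgeR, adjusted p = 0.698), and at P34 and P38 its values overlapped theirs. Txnrd1, the cytosolic thioredoxin reductase, ranged from 37.6 to 55.7 CPM over the 12 mice, with log2 fold changes of -0.14 ± 0.11, 0.09 ± 0.11 and 0.07 ± 0.11 at P32, P34 and P38 against P30. For Gclc these were -0.16 ± 0.10, -0.04 ± 0.10 and -0.01 ± 0.10, and for Gclm -0.07 ± 0.08, 0.04 ± 0.08 and -0.14 ± 0.08. Of the 21 other NRF2 targets tested, none passed at P34 against P30, with a median of -0.02, and 5 lay below all controls and 1 above (9.67% and 10.4% of all genes). Among them Slc7a11, the cystine importer that feeds glutathione synthesis, was picked after its values were seen: it stood at 22.7, 15.7 and 26.4 CPM in P30 mice, 22.5, 21.6 and 5.64 in P32 mice, 2.59, 2.60 and 3.18 in P34 mice and 43.1, 32.6 and 5.26 in P38 mice. Mouse 6, the P34 mice and mouse 12 were low, as for Gstm1 and Gstm2, and the difference of -2.95 ± 0.67 at P34 did not pass (edgeR, adjusted p = 0.0954). Osgin1 (-1.26 ± 0.30; edgeR, adjusted p = 0.117) and Ephx1 (-1.21 ± 0.30; edgeR, adjusted p = 0.137), likewise picked after their values were seen, also lay below all controls at P34.

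Against P30, no member was called at P32 or at P38, and no gene of the whole table was either (0% lower and 0% higher). With an unadjusted p up to 0.05, 1 member was lower at P32 (Gsta3, 2.27%, against 3.09% of all genes) and 4 at P38 (Gsta3, Gpx3, Sod3 and Hmox1, 9.09%, against 3.82%), and 0 members were higher at either age (2.55% and 1.82% of all genes). By DESeq2, 0 members were called at P32, against 17 lower and 8 higher of all 18628 genes, and 1 at P38, Gsta3, against 34 lower and 11 higher. The study, also by DESeq2, lists Gsta3 as lower at both ages. Without control mouse 1, edgeR called 19 of 19052 genes lower at P32 and 13 at P38, with 0 higher. At P32, no filter on low counts gave 17 lower and 6 higher genes. Cat, Sod3, Gclm and Nqo1 lay below all controls at P32 (4 of 44, 9.09%, against 4.39% of all genes), and Gsta3, Gstt3, Gpx3, Sod3 and Gclm did so at P38 (5 of 44, 11.4%, against 7.96%). No member lay above all controls at either age, against 5.26% and 8.23% of all genes. The 3 comparisons with P30 share the same control mice.

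**Figure D4:**
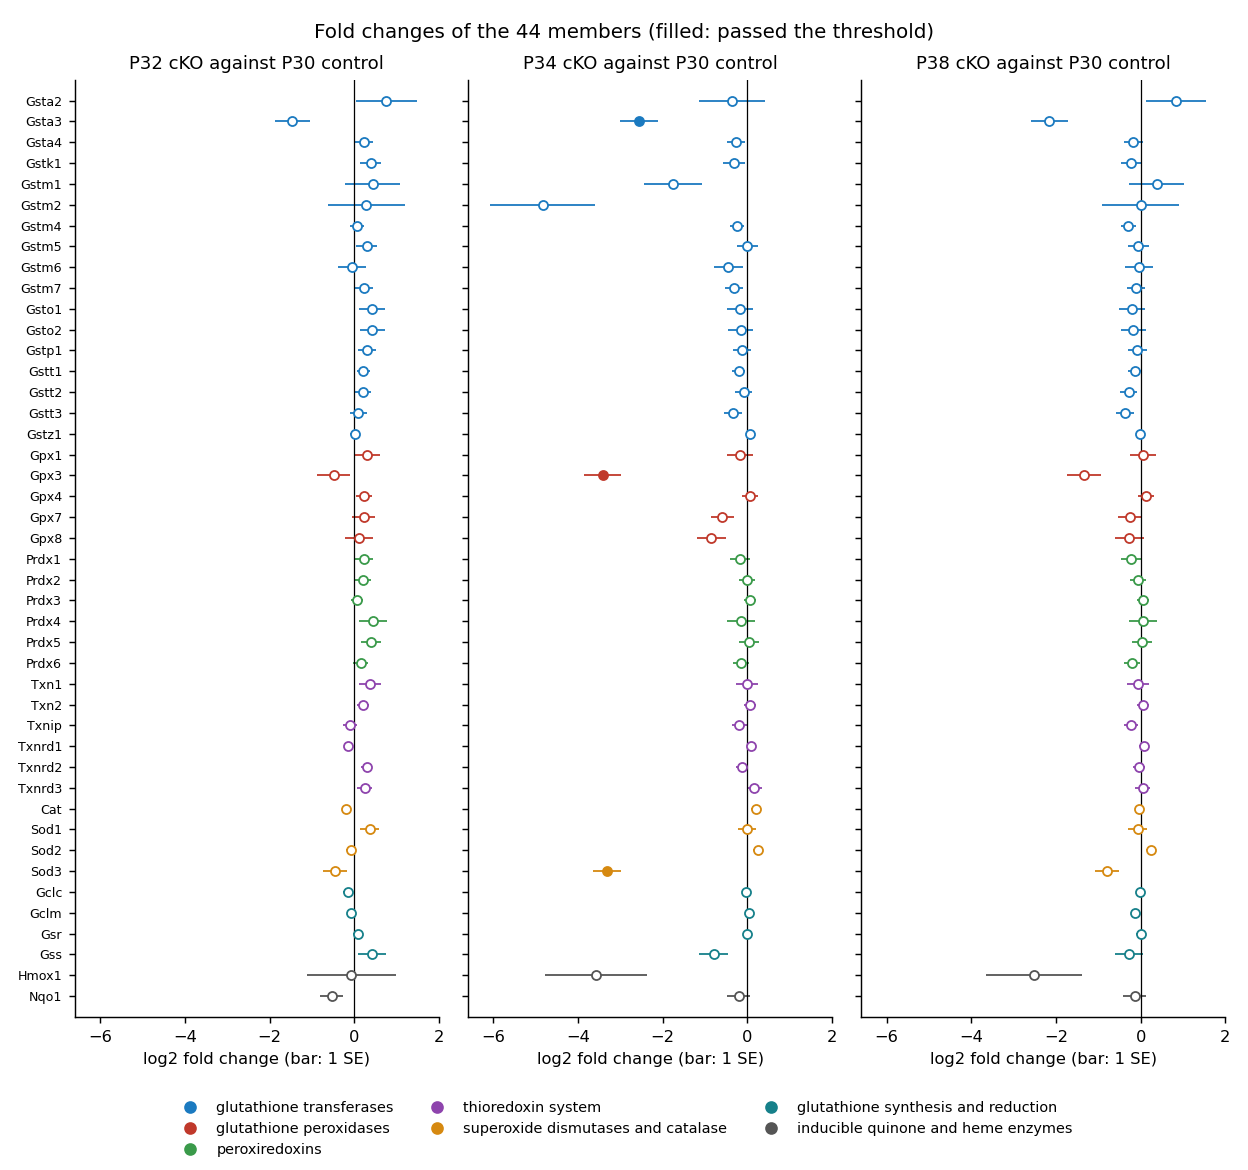
Log2 fold change of each of the 44 genes at P32, P34 and P38 against P30; bars are 1 SE, colours give the role and filled dots passed the threshold. Filled dots appear at P34 alone, for Gsta3 (-2.57), Gpx3 (-3.42) and Sod3 (-3.32), while Gstm2 and Hmox1 lie far to the left there with wide bars.

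Between cKO ages, Gpx3 and Sod3 were lower at P34 than at P32 (2 of 44, 4.55%, against 0.242% of all genes), and Sod3 was higher at P38 than at P34 (1 of 44, 2.27%, against 0.199%). The Gpx3 difference between P34 and P32 was no longer called without mouse 7 (-3.16; edgeR, adjusted p = 0.0696), 8 (-2.81; 0.0923) or 9 (-2.91; 0.0955). With the 2 groups fitted alone both calls were lost while the log2 differences stayed at -2.92 for Gpx3 (edgeR, adjusted p = 0.157) and -2.83 for Sod3 (edgeR, adjusted p = 0.0964). The Sod3 difference between P38 and P34 lost its call, but not its size, without mouse 7 (2.60, edgeR, adjusted p = 0.0653) or 8 (2.39, edgeR, adjusted p = 0.0806). With the ciliary body or the lens score as a covariate, no member was called in either comparison. Over all alternatives the differences at P34 against P32 shrank as far as -0.9 for Sod3 and turned to 0.03 for Gpx3. At P38 against P34, Sod3 shrank as far as 0.69. Without mouse 6, in which ciliary markers and lens markers were low, 14 members were called lower at P34 than at P32, among them Gstm1, Gstm2, Gss and Hmox1; over all 19062 genes then tested 1310 were called lower and 1416 higher, against 45 and 0 with all mice. With an unadjusted p up to 0.05, 14 members were lower (31.8%, against 13.3% of all genes) and 2, Cat and Sod2, higher (4.55%, against 13.5%) at P34 than at P32. From P34 to P38 the same limit gave 1 lower (Gclm, 2.27%, against 1.58%) and 4 higher (Gstm1, Gstm2, Gpx3 and Sod3, 9.09%, against 3.5%). Values of 9 members at P34 lay below all at P32 (13.6% of all genes did), and those of Cat, Sod2 and Gclm above (14.8% of all genes). From P34 to P38, 7 members lay above all P34 values (5.36% of all genes) and 1, Gclm, below (4.58%).

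Much of the remaining variation belonged to single libraries. P32 mouse 4 gave the highest value of 27 of the 44 members (61.4%), whereas it gave the highest value of 27.0% and the lowest value of 29.8% of all genes tested. P34 mouse 8 and P38 mouse 11 each gave the lowest value of 14 members (31.8%, against 8.61% and 10.5% of all genes). In mouse 4, Prdx5 stood at 220 CPM against 97.6 to 140 CPM in the other mice, Sod1 at 155 CPM against 67.0 to 92.3 CPM, and Txn1 at 69.1 CPM against 28.4 to 41.4 CPM. Expressed as log2 deviation from each gene's median over the 12 mice, the members had a median of 0.69 in mouse 4 and between -0.19 and 0.18 in the others, while the median over all genes tested lay between -0.01 and 0.00 in every mouse. The median log2 fold change of the members at P32 against P30 was accordingly 0.21 with mouse 4 and -0.06 without it, against -0.01 over all genes. At P34 against P32 it was -0.40 with mouse 4 and -0.07 without it.

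Genes with a small merged exon length shared the deviation of mouse 4, in classes picked after the members' values were seen. Its median deviation was 0.78 over 79 ribosomal protein genes, 0.83 over 96 genes of oxidative phosphorylation, 0.46 over the 4655 genes tested with the least exon length and -0.40 over the 4653 with the most. The 44 members had a median exon length of 2122 bases, and in mouse 4 the 22 shorter ones deviated by 0.89 and the 22 longer ones by 0.48. This mouse also had the largest share of reads that mapped to more than 1 place, 32.15% of its reads against 23.68% to 29.31% in the others, and the part of library quality in the members' levels was not tested. In every condition the members as a whole were uneven: 36, 12 and 36 of the 44 lay above their own median in P30 mice 1 to 3, 38, 36 and 6 in P32 mice 4 to 6, 30, 6 and 8 in P34 mice 7 to 9, and 37, 9 and 10 in P38 mice 10 to 12.

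**Figure D5:**
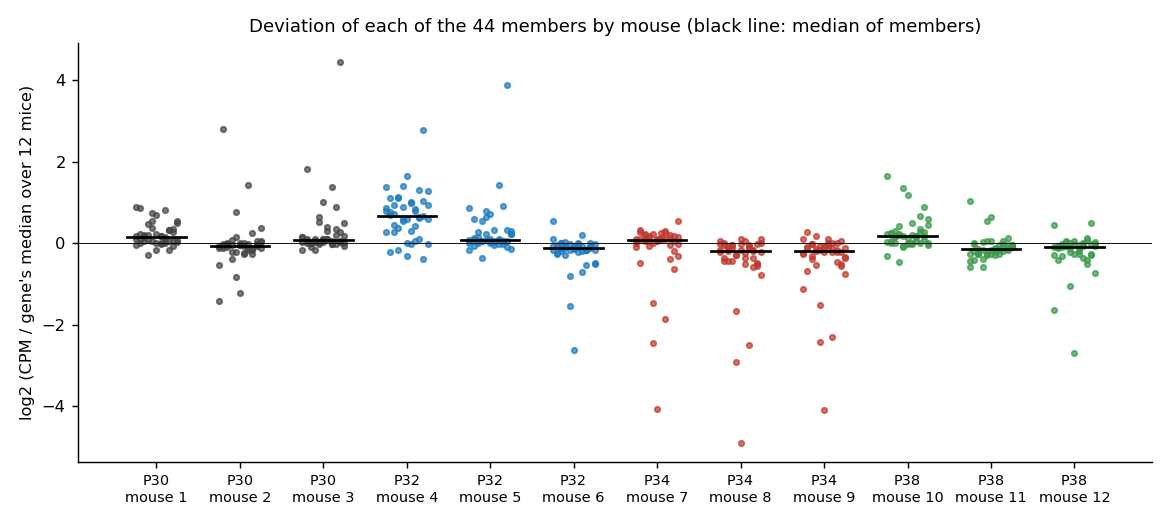
Log2 deviation of each of the 44 genes from its own median over the 12 mice, by mouse; dots are genes, black lines are the medians over the 44 genes and colours give the condition. The median is 0.69 in mouse 4 and between -0.19 and 0.18 in the other mice, and the lowest dots, at P34, belong to Gstm2.

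Summed within roles, the peroxiredoxins gave 468 to 904 CPM, the glutathione transferases 206 to 452 CPM, the thioredoxin system 220 to 310 CPM, the dismutases with catalase 194 to 274 CPM, the glutathione peroxidases 88.8 to 242 CPM and glutathione synthesis with reduction 145 to 178 CPM, with mouse 4 highest in the first 5 and mouse 3 in the last. None of the 6 peroxiredoxins and none of the 6 thioredoxin genes was called in any comparison, where 0% to 0.66% of all genes were called in a direction. At P34 against P30 the peroxiredoxins lay between -0.18 (Prdx1) and 0.06 (Prdx3) on the log2 scale, and the thioredoxin genes between -0.19 (Txnip, the thioredoxin inhibitor) and 0.16 (Txnrd3). Of the 17 glutathione transferases, 16 had a negative log2 fold change at P34 against P30, with a median of -0.27, and 1 passed (5.88%), where 50.2% of all genes were negative and 0.66% were called lower.

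Of 144 other genes of the pathway, 136 were tested, in lists of NRF2 regulators (12 tested), other NRF2 targets (21), glutathione supply, use and transport (23), glutaredoxins, thioredoxin-like proteins and methionine sulfoxide reductases (28), selenoprotein synthesis (20), NADPH supply (15), sources of superoxide and peroxide with metal handling (16) and peroxisome (4); lists may share genes. At P34 against P30, 2 of the 136 were called lower (1.47%, against 0.66% of all genes) and 0 higher, and none was called in the other 4 comparisons. Their median log2 fold change was 0.06, -0.02 and 0.00 at P32, P34 and P38 against P30. Mgst1, a membrane-bound glutathione transferase and peroxidase, stood at 12.7, 20.5 and 17.9 CPM in P30 mice, 18.7, 12.1 and 4.51 in P32 mice, 3.23, 3.04 and 3.25 in P34 mice and 11.5, 7.76 and 6.11 in P38 mice, with a log2 fold change of -2.42 ± 0.42 at P34 (edgeR, adjusted p = 0.0228). Idh2, which supplies NADPH in mitochondria, stood at 26.9, 24.5 and 34.2 CPM in P30 mice, 35.3, 32.3 and 20.8 in P32 mice, 15.9, 14.9 and 14.9 in P34 mice and 24.0, 21.6 and 21.7 in P38 mice, with -0.91 ± 0.18 at P34 (edgeR, adjusted p = 0.0473). Both had their lowest 3 values in the P34 mice and a low value in mouse 6, as Sod3 and Gpx3 did.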

How the data were processed

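Poly(A) RNA of 12 retinas was sequenced in stranded libraries as single reads of 50 bp. The deposited counts are whole reads per Ensembl gene (release 93), which the authors obtained, per the study's methods and processing notes, with bcl2fastq 2.17.1.14, STAR 2.5.3a on mm10 and HTSeq 0.6.1p1 in union mode; the strand setting is not given in the sources used here. Reads with several positions (23.68% to 32.15% of reads) and other unassigned reads were left out, so that members with near-identical copies (Gsta, Gstm and Gstp1, Prdx and Gpx4 with pseudogenes) are uncertain. Names and coordinates came from GENCODE M21 (GRCm38), which named 99.9% of the genes.

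Counts of the 4 groups were fitted together in R 4.3.3 with edgeR 4.0.16 on limma 3.58.1 (TMM, filterByExpr, quasi-likelihood test), which tested 18628 genes; p-values were adjusted by Benjamini-Hochberg over all of them. DESeq2 1.42.0, other filters, scalings and covariates (sex, or a marker score, the mean log2 CPM with a prior count of 2) were alternatives. CPM are TMM-scaled. Log2 deviations used an offset of 0.01 CPM. The script was tested on simulated data. Replicates differed by more than sampling noise (chi-square per degree of freedom 19.7 to 254), and p-values measure the spread between these mice.

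Members and gene lists were chosen with earlier results of these data known. Values per mouse are given for members called in any comparison, on one side of P30 at all ages, with an unadjusted p of at most 0.01 against P30, and for Nqo1 and Hmox1; Gclc, Gclm, Txnrd1 and the member with the highest level per length in each role are given by their range or mean; others by ranges and counts, with exceptions named as such.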

Additional observations from a re-analysis of the deposited data

Results flagged for a closer look

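Sod3 and Gpx3 differed between times after induction by a test of the difference itself (edgeR's quasi-likelihood test, Benjamini-Hochberg adjustment over all genes). Sod3, the secreted superoxide dismutase, was -2.85 on the log2 scale at P34 against P32 (3 of 3 mice below) and 2.53 at P38 against P34 (3 of 3 mice above). Gpx3, the secreted glutathione peroxidase, was -2.95 at P34 against P32 (3 of 3 mice below). These calls depended on the setting. At P34 against P32, Gpx3 lost its call without mouse 7, 8 or 9, and both genes lost theirs with only the groups compared. At P38 against P34, Sod3 lost its call without mouse 7 or 8. With the ciliary body or the lens score as a covariate none of these calls held. Beside these, the summed ciliary body and iris markers stood at 79 to 179 CPM at P32, 24.7 to 31.2 CPM at P34 and 74.9 to 137 CPM at P38.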

How the results depend on the processing

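No paired analysis was possible because the mice of the 4 groups share no replicate numbers. With library scaling by RLE, a minimum of 10 counts in 3 libraries, a robust fit or sex as a covariate, the number of called members stayed within 1.5 times of that reported in all 5 comparisons, and at P32 against P30 it was 0 under every alternative. At P34 against P30 (3 called) it was 5 without a filter on low counts, 5 with only the groups compared and 0 when the ciliary body score was a covariate. At P38 against P30 (0 called) it was 1, Gsta3, without a filter and by DESeq2, and 0 to 1 on leaving out 1 mouse, the 1 being without control mouse 1. At P34 against P32 (2 called) it was 6 without a filter, 7 by DESeq2, 0 with only the groups compared, 0 with the ciliary body score, 0 with a lens score added after seeing the data, and 1 to 14 on leaving out 1 mouse (14 without mouse 6, and 1 without mouse 7, 8 or 9). At P38 against P34 (1 called) it was 3 without a filter, 3 by DESeq2, 2 with only the groups compared, 0 with either score, and 0 to 2 on leaving out 1 mouse (0 without mouse 7 or 8, and 2 without mouse 5 or 6). With the ciliary body score, log2 differences changed sign for, among other members, Gpx3 (0.31), Gsta3 (0.16), Gstm2 (3.97), Gstm1 (3.30), Hmox1 (2.74) and Gss (0.86) at P34 against P30, for Gpx3 (0.03), Gss (0.10), Gstm2 (2.22), Gstm1 (2.01) and Hmox1 (1.63) at P34 against P32, and for Gpx3 (-0.67), Gstm2 (-2.33) and Gstm1 (-1.92) at P38 against P34, none of them called. At P34 against P30 the lens score left 2 members called, without Gsta3. Over all genes the counts moved too: at P34 against P30, 123 were called lower and 0 higher, against 353 and 16 by DESeq2, 294 and 4 without a filter, 228 and 1 with only the groups compared, 58 and 0 with the lens score and 0 and 0 with the ciliary body score. At P34 against P32 these were 45 and 0, against 843 and 579, 425 and 231, 11 and 0, 10 and 0, and 0 and 0 in the same order, and 1310 and 1416 without mouse 6. At P38 against P34 they were 0 and 37, against 7 and 137, 3 and 112, 1 and 70, 0 and 13, and 0 and 0. At P38 against P30 they were 0 and 0, against 34 and 11 by DESeq2 and 15 and 3 without a filter. Apart from the smaller number of mice or the other set of genes that an alternative itself brings, the cause of these changes was not tested.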
